A study of Homo sapiens with 6 samples.

Results

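The lysyl oxidase genes LOX, LOXL1, LOXL2, LOXL3 and LOXL4 were followed in human lung fibroblasts with and without knockdown of ZNF469, a zinc finger gene. The members were the rows of the deposited table with these 5 gene symbols, out of 23754 features, and all 5 passed the filter on low counts. The cells were IMR-90, an established fibroblast line from fetal human lung. They carried a Tet-pLKO-puro vector that makes a short hairpin (sh-2) against ZNF469 when doxycycline is present, and were selected with puromycin, so every library came from this 1 selected line. DOX+ cells (3 libraries, labelled Sh-ZNF469) received 2 µg/mL doxycycline for 4 days. DOX– cells (3 libraries, labelled Control) were grown without doxycycline and were labelled wild-type, although the study's methods describe them as the same line without induction. Doxycycline and the induced hairpin cannot be told apart in these 6 libraries. The submitters call the libraries technical replicates, so p-values measure the spread between these libraries, which may be technical.

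Lysyl oxidases are secreted copper enzymes that oxidize lysine and hydroxylysine side chains of collagens and elastin to reactive aldehydes, which then join neighbouring chains by covalent crosslinks. LOX and LOXL1 are made as proenzymes with a propeptide that is cleaved outside the cell, whereas LOXL2, LOXL3 and LOXL4 carry scavenger receptor domains before the shared catalytic part. In lung fibroblasts these enzymes stiffen the matrix, and LOXL2 has been a target of antifibrotic antibodies. The comparison asked whether the crosslinking enzymes moved with the collagen genes when ZNF469 was lowered.

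Total counts ranged from 34057675 to 36120260 per library. ZNF469 measured 112 to 126 CPM (counts scaled to the TMM-adjusted library size) in the DOX– libraries and 79.6 to 80.4 CPM in the DOX+ libraries, so 67.5% of the transcript remained. Its log2 fold change was −0.57 (SE 0.0477, edgeR adjusted p = 3.31e-05). DOX+ replicate 2 stood apart on the first principal component, scoring 30.5 where the other 5 libraries scored −12.8 to 4.44. The labelled cell type was checked with defining markers, and all 10 fibroblast markers were present, summing to 36850 to 37970 CPM in DOX– and 27480 to 28370 CPM in DOX+ libraries, a sum dominated by collagen genes. The epithelial genes EPCAM and CDH1 stayed below 0.4 CPM and SFTPC, SFTPB and NKX2-1 were at 0 counts, as were PECAM1 and CDH5 of endothelium and CD3E and LYZ of immune cells. The 7 epithelial markers summed to 106.9 to 115.3 CPM in DOX– and 110.2 to 131.3 CPM in DOX+ libraries, mostly KRT18 and KRT8, the 5 endothelial markers to 19.8 to 24.3 and 20.6 to 23.9 CPM, mostly TEK, and the 5 immune markers to 60.7 to 66.8 and 59.1 to 65.3 CPM, mostly CD68. Their part in the results below was not tested.

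The promoter of LOX is shown because LOX was the member that passed the test below. It is the 250 bases before the RefSeq transcription start on GRCh38.p14, from chr5:122078260-122078509, written 5′ to 3′ on the minus strand, the strand of the gene. Another transcript of LOX in GENCODE starts inside this window. Capitals mark every match, on either strand, to a TATA box (TATAAA), a GC box (GGGCGG), the core of the hypoxia response element (ACGTG), a SMAD binding element core (CAGAC), an AP-1 site (TGACTCA) or a TEAD site (GGAATG).
LOX: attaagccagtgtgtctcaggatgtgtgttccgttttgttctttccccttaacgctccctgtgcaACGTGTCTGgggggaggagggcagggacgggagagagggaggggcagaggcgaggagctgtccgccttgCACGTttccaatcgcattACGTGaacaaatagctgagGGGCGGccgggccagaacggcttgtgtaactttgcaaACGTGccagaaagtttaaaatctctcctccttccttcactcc

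The LOX window held 4 matches to ACGTG, starting 185, 116, 98 and 42 bases before the start. At least 1 such match was present in 18.5% of 35116 RefSeq promoter windows of the same length. At least 4, a threshold taken from the LOX window itself, were present in 0.669%. The same window held 1 GC box, which 42.6% of windows hold, and 1 SMAD element core, which 38.0% hold and which shares 1 base with the ACGTG farthest upstream. The corresponding LOXL1 window, which lies inside an exon of another annotated transcript, held 1 SMAD element core and no match to the other 5 motifs. The TATA box, AP-1 site and TEAD site, present in 10.7%, 4.2% and 11.9% of windows, matched in neither. These are letter matches, and binding of a factor was not measured in this table.

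In the GENCODE 44 annotation of GRCh38, LOX (ENSG00000113083) lies on chromosome 5 from 122063195 to 122078413 on the minus strand. LOXL1 (ENSG00000129038) lies on chromosome 15 from 73925989 to 73952137 on the plus strand. LOXL2 (ENSG00000134013) lies on chromosome 8 from 23296897 to 23425328, LOXL3 (ENSG00000115318) on chromosome 2 from 74532258 to 74555690 and LOXL4 (ENSG00000138131) on chromosome 10 from 98247690 to 98268194, all on the minus strand. The canonical transcripts of LOX and LOXL1 have 7 exons each, those of LOXL2 and LOXL3 have 14 and that of LOXL4 has 15. Each member overlaps another annotated gene, and the sources used here do not state whether strand was used in counting. SRFBP1, on the opposite strand to LOX, had 364 to 468 counts per library against 49919 to 60246 for LOX. ENTPD4, on the same strand as LOXL2, had 2793 to 3110 counts against 45872 to 50859 for LOXL2. The opposite-strand neighbours of LOXL3, DOK1 and HTRA2, had 568 to 668 and 521 to 649 counts against 958 to 1049 for LOXL3. None of SRFBP1, ENTPD4, HTRA2 and DOK1 passed an FDR of 0.05 (edgeR adjusted p from 0.532 to 0.993).

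Per unit of transcript length, the members fell into 3 abundant and 2 scarce genes. The values are FPKM as deposited, that is fragments scaled by transcript length and library size, which allow levels of different genes to be set side by side. LOXL2 was highest, at 363 ± 10.7 FPKM in DOX– and 352 ± 9.59 FPKM in DOX+ cells (SD, n = 3). LOX followed at 274 ± 4.86 and 311 ± 9.98 FPKM, and LOXL1 at 88.9 ± 2.72 and 97.6 ± 2.39 FPKM (SD, n = 3). LOXL3 was low, at 8.19 ± 0.267 and 8.06 ± 0.444 FPKM, and LOXL4 lower still, at 3.65 ± 0.290 and 3.56 ± 0.620 FPKM (SD, n = 3). No neighbours in this order overlapped in either group, and the order was the same in CPM per kb of canonical transcript. By CPM, which ignores length, LOX ranked 62 and LOXL2 ranked 64 among 13991 features tested in DOX– cells, LOXL1 ranked 707, LOXL3 ranked 5956 and LOXL4 ranked 8120.

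**Figure D1:**
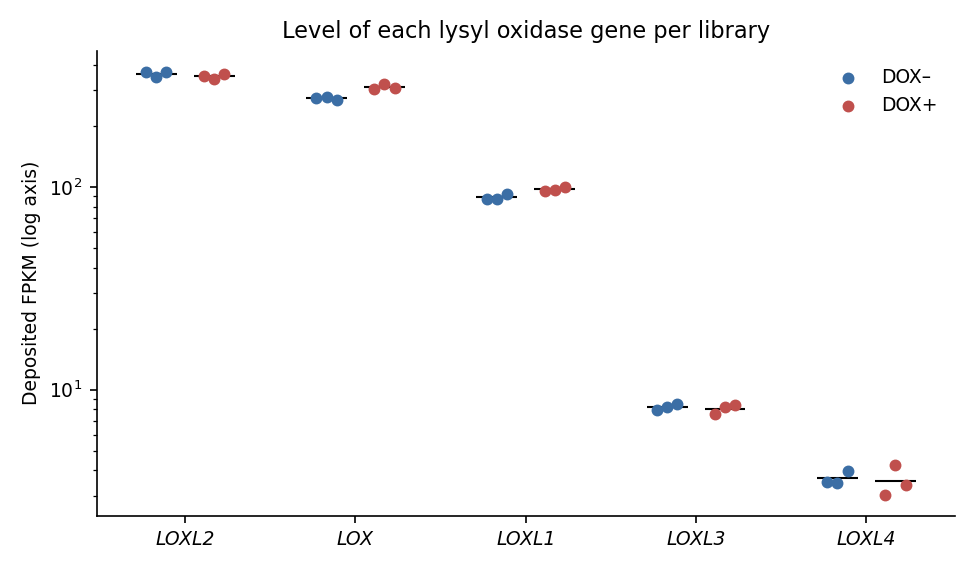
Deposited FPKM (log axis) of the 5 lysyl oxidase genes in 3 DOX– (blue) and 3 DOX+ (red) libraries, with points for libraries and lines for group means. LOXL2 at 363 FPKM and LOX at 274 FPKM in DOX– cells stand far above LOXL3 at 8.19 and LOXL4 at 3.65 FPKM.

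LOX, the founding member of the family, was the only one of the 5 to pass an FDR of 0.05, and it was higher in DOX+ cells. It measured 1474, 1461 and 1433 CPM in DOX– replicates 1, 2 and 3, and 1628, 1699 and 1606 CPM in DOX+ replicates 1, 2 and 3. Each DOX+ library lay above each DOX– library, and DOX+ replicate 2, which stood apart on the first principal component, was the highest. The group means were 1456 ± 21.0 and 1644 ± 49.1 CPM (SD, n = 3), a log2 fold change of 0.18 (SE 0.0263, 95% interval 0.12 to 0.23, edgeR adjusted p = 0.00531), or 113% of the DOX– level. In bulk RNA, more transcript per cell and more cells making it cannot be told apart. The exact permutation test gave p = 0.1 (two-sided), the smallest that 3 libraries against 3 allow. The call of 1 of 5 members stands beside a background of 1.12% of 13991 features called in either direction, and 0.400% called higher. LOX had the 8th smallest p-value among features that were higher, yet 9 of the 56 features called higher changed by less. Without DOX+ replicate 2 its log2 fold change was 0.15 (edgeR adjusted p = 0.00615). The call was lost with limma on log2(FPKM + 1), where the log2 fold change was 0.18 (adjusted p = 0.115).

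LOXL1, which is best known for crosslinking elastin, had the same direction but did not pass the test. It measured 228, 229 and 245 CPM in DOX– and 248, 246 and 259 CPM in DOX+ replicates 1, 2 and 3. The groups did not overlap, although DOX– replicate 3 lay only just below DOX+ replicate 2. The log2 fold change was 0.10 (SE 0.0400, 95% interval 0.01 to 0.19, edgeR adjusted p = 0.253). Groups without overlap were found for 2 of the 5 members, LOX and LOXL1, and for 20.3% of all features tested.

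LOXL2, the most abundant member per length and a collagen IV crosslinker, lay slightly lower in DOX+ cells and did not pass the test. It measured 1437, 1365 and 1458 CPM in DOX– and 1361, 1294 and 1385 CPM in DOX+ replicates 1, 2 and 3. The groups overlapped, because DOX– replicate 2 was below DOX+ replicate 3. The log2 fold change was −0.08 (SE 0.0317, edgeR adjusted p = 0.278) and its 95% interval was −0.15 to −0.01. Between libraries of the same replicate number, the DOX+ library was always the lower. With the replicate number as a block, the edgeR adjusted p of LOXL2 was 0.0526. Whether these numbers pair the libraries is not settled. COL1A1, described below, had an interval that lay wholly under that of LOXL2. By RT-qPCR, a different assay, the study reports a significant decrease of LOXL2 after ZNF469 knockdown.

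LOXL3 and LOXL4 were both low and did not pass the test. LOXL3 measured 28.3, 28.2 and 30.1 CPM in DOX– and 27.5, 27.9 and 28.8 CPM in DOX+ replicates 1, 2 and 3, with overlapping groups and a log2 fold change of −0.04 (95% interval −0.16 to 0.08, edgeR adjusted p = 0.798). LOXL4 measured 14.2, 13.96 and 16.4 CPM in DOX– and 12.1, 16.6 and 13.5 CPM in DOX+ replicates 1, 2 and 3. DOX+ replicate 2 was the highest and DOX+ replicate 1 the lowest of all 6 libraries for LOXL4, and the coefficient of variation in DOX+ cells was 16.4% against 2.99% for LOX. Its log2 fold change was −0.07 (95% interval −0.32 to 0.17, edgeR adjusted p = 0.807), the widest interval of the 5 members, from 433 to 590 counts per library. None of the 5 members met the study's own criterion of an absolute log2 fold change over 1, which 6 of 13991 features (0.0429%) met together with an FDR under 0.05. The study itself reports far more genes in each direction at this criterion, and why the counts differ was not tested.

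**Figure D2:**
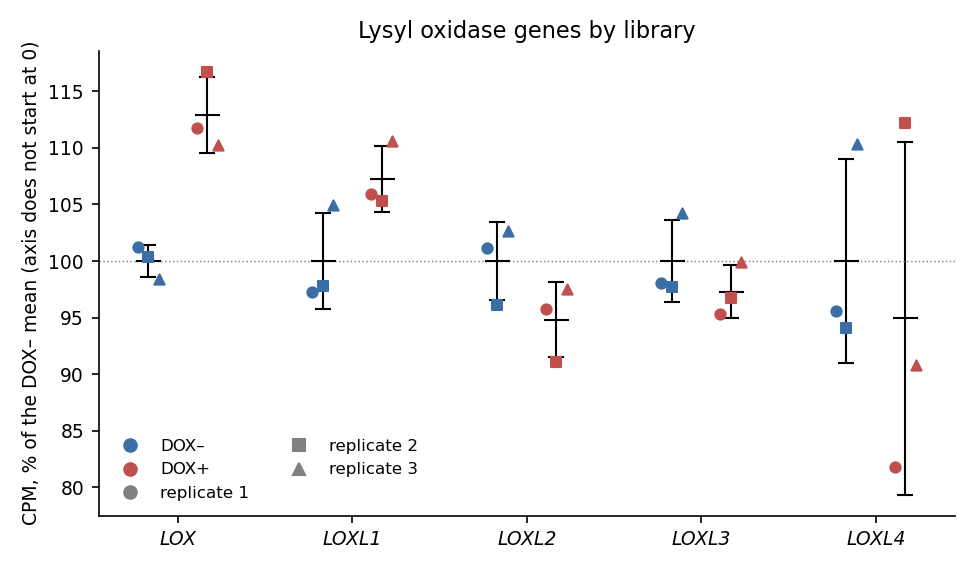
CPM of each lysyl oxidase gene in each library as a percentage of the mean of its DOX– libraries (axis does not start at 0), with DOX– in blue, DOX+ in red, a marker shape per replicate number, and bars for the mean ± SD. The 3 LOX values in DOX+ cells sit at 110% to 117%, above every DOX– value, while LOXL4 in DOX+ cells spreads from 81.8% to 112%.

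**Figure D3:**
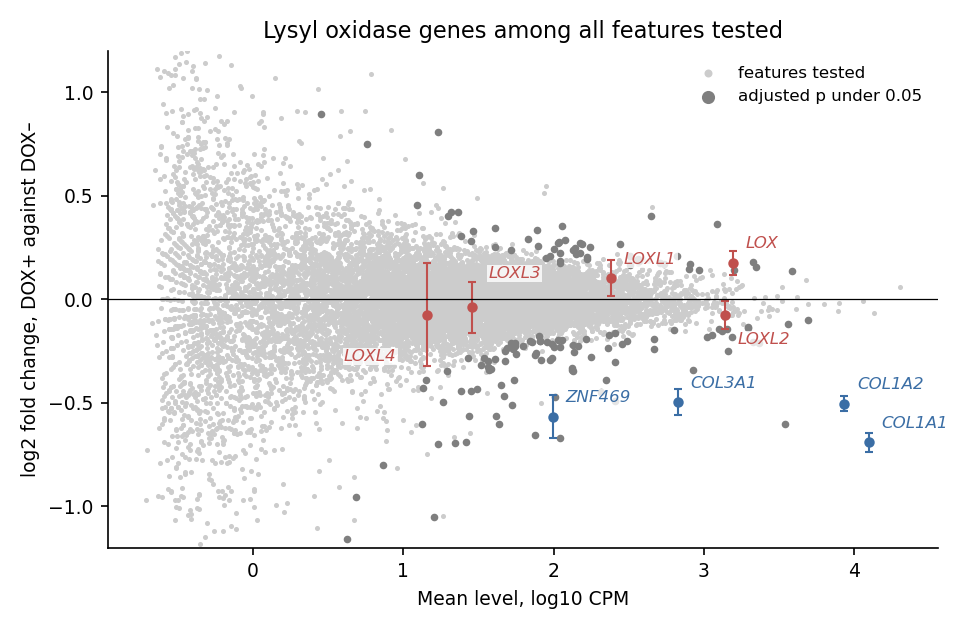
Log2 fold change (DOX+ against DOX–) against mean level (log10 CPM) for the features tested, with the 5 lysyl oxidase genes in red, ZNF469 and 3 collagen genes in blue, 95% intervals as bars, and 70 features beyond ±1.2 left out. LOX lies at 0.18, and LOXL2 at −0.08 lies far above COL1A1 at −0.69.

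The exact permutation test of the difference between 2 members could pass for no pair, so it does not decide whether they differ. Its smallest possible p, 0.1, lies above the FDR threshold used here. The difference in change between 2 members was measured as the log2 ratio of their CPM within each library, for all 10 pairs. The LOX to LOXL2 ratio was 0.04, 0.10 and −0.03 on the log2 scale in DOX– and 0.26, 0.39 and 0.21 in DOX+ replicates 1, 2 and 3 with means 0.25 apart. The group means of the LOX to LOXL3, LOXL1 to LOXL2 and LOXL1 to LOXL3 ratios lay 0.21, 0.18 and 0.14 higher in DOX+ cells, also without overlap between groups. Each of these 4 pairs had an exact permutation p of 0.1, the smallest possible, and a Benjamini-Hochberg adjusted p of 0.25 over 10 pairs. All 4 set LOX or LOXL1, whose own groups did not overlap, against LOXL2 or LOXL3, so they are not independent. Of single features, 20.3% had no overlap, and the share among gene pairs in general was not computed. The lack of overlap is therefore only a description. For LOX to LOXL1 the means lay 0.07 apart with overlapping groups (exact permutation p = 0.4).

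The make-up of the family differed between groups by a few percentage points. LOX took 36.9%, 38.3% and 36.3% of the summed FPKM of the 5 genes in DOX– and 39.8%, 41.6% and 39.4% in DOX+ replicates 1, 2 and 3. LOXL2 took 49.8%, 48.1% and 49.6% in DOX– and 46.3%, 44.3% and 46.3% in DOX+ replicates. Shares of a common sum are tied, so higher LOX by itself makes the LOXL2 share smaller. The mean of LOXL2 itself was 363 FPKM in DOX– and 352 FPKM in DOX+ cells, and LOXL2 did not pass the test. The summed FPKM was 737 ± 8.02 in DOX– and 773 ± 10.0 in DOX+ cells (SD, n = 3). With limma on log2(FPKM + 1), the median log2 fold change of all features was 0.022, against −0.0019 in the main fit. The part of this scaling in the difference between the sums was not tested.

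Collagen genes that LOX enzymes act on fell where LOX rose. Of 12 genes for crosslinked substrates (fibrillar and type IV collagen chains and elastin), 11 were tested, 5 fell, none rose and 6 did not pass, against 0.715% of all features called lower. The median log2 fold change was −0.13, against −0.0019 over all features tested. COL1A1 measured 15509 CPM on average in DOX– and 9610 CPM in DOX+ cells, and fell by 0.69 on the log2 scale (edgeR adjusted p = 1.66e-09). COL1A2 fell by 0.50 and COL3A1 by 0.50, the fibrillar chains made beside it, and COL5A2, a chain that helps to set fibril width, by 0.34 (edgeR adjusted p at most 2.29e-05). COL4A1, a basement membrane chain oxidized by LOXL2, fell by 0.13 (edgeR adjusted p = 0.00643). It no longer passed when replicate 1 of either group was left out (0.0855 for DOX– and 0.0641 for DOX+). COL5A2 and COL4A1 also lost their calls with limma on FPKM (adjusted p = 0.207 and 0.274). ELN, the elastin gene, had a log2 fold change of 0.02 (edgeR adjusted p = 0.866). COL2A1 was at 0 counts in all libraries.

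The lysyl oxidase levels were also set against those of 3 collagen genes, a denominator that itself fell. COL1A1, COL1A2 and COL3A1 summed to 3881 ± 54.5 FPKM in DOX– and 2649 ± 6.75 FPKM in DOX+ cells (SD, n = 3), so a gene with the same FPKM in every library would show a 1.46-fold ratio. LOX stood at 69.8, 72.9 and 69.2 FPKM per 1000 FPKM of this sum in DOX– and at 115, 121 and 116 in DOX+ replicates 1, 2 and 3, a 1.66-fold ratio of the means, and LOXL1 had a 1.61-fold ratio. For LOXL2 the same quantity was 94.1, 91.6 and 94.5 in DOX– and 134, 129 and 137 in DOX+ replicates, a 1.42-fold ratio, and the ratios of LOXL3 and LOXL4 were 1.44-fold and 1.43-fold. Only LOX and LOXL1 lay above the 1.46-fold of a constant gene, while LOXL2, LOXL3 and LOXL4 lay just below it. The lack of overlap between groups for this quantity follows from the denominator and is no result about the enzymes.

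**Figure D4:**
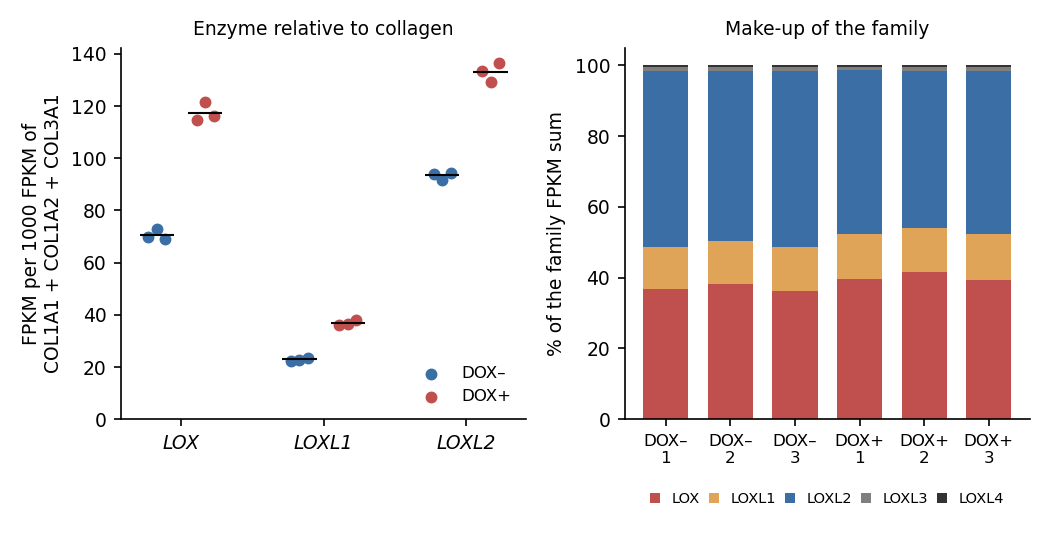
Left, FPKM of LOX, LOXL1 and LOXL2 per 1000 FPKM of COL1A1, COL1A2 and COL3A1, with points for libraries and lines for group means, where LOX goes from 69.2 to 72.9 in DOX– (blue) to 115 to 121 in DOX+ (red) and a gene of constant FPKM would go up 1.46-fold. Right, share of each gene in the summed FPKM of the 5 members per library, where LOX goes from 36.3% to 38.3% in DOX– to 39.4% to 41.6% in DOX+.

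Genes that modify lysines or guard the collagen chain before crosslinking gave mixed values. Of 12 genes for crosslink chemistry, 1 rose, 1 fell and 10 did not pass, against 0.400% of all features called higher and 0.715% called lower, at a median log2 fold change of 0.0067. PLOD2, the lysyl hydroxylase that acts on collagen telopeptides and so sets which crosslinks LOX can form, rose from a mean of 159 to 189 CPM, a log2 fold change of 0.25 (edgeR adjusted p = 0.0325). Leaving out 1 library took the adjusted p of PLOD2 over 0.05 in 4 of 6 cases (0.143 and 0.164 for DOX– replicates 1 and 3, 0.134 and 0.0863 for DOX+ replicates 1 and 2), as did limma on FPKM (0.142). SERPINH1, the collagen chaperone HSP47, fell by 0.18 on the log2 scale (edgeR adjusted p = 0.00629), which missed the threshold without DOX+ replicate 1 (0.0582) and with limma on FPKM (0.142). PLOD1 and PLOD3, the other lysyl hydroxylases, had log2 fold changes of 0.01 and −0.09 (edgeR adjusted p = 0.909 and 0.276).

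Of 14 genes for LOX activation and its matrix scaffold, 13 were tested, 2 rose, none fell and 11 did not pass, against 0.400% of all features called higher, at a median log2 fold change of 0.03. POSTN encodes periostin, a matrix protein that binds BMP1 and aids the cleavage of proLOX, and it rose from 10.1 ± 0.401 to 15.4 ± 1.23 CPM (SD, n = 3), a log2 fold change of 0.60 (edgeR adjusted p = 0.00595, and 0.0668 with limma on FPKM). THBS1, the matricellular protein thrombospondin 1, rose by 0.16 on the log2 scale (edgeR adjusted p = 0.00629), which no longer held when replicate 1 of DOX– (0.0602) or of DOX+ (0.0595) was left out, or with limma on FPKM (0.0779). BMP1, the protease that releases the LOX propeptide, had a log2 fold change of −0.06 (edgeR adjusted p = 0.509). FN1, the fibronectin on which LOX is activated, had one of 0.06 (edgeR adjusted p = 0.0775), and passed with library size scaling (adjusted p = 0.00597) and without DOX+ replicate 2 (0.00615). TLL1, a protease related to BMP1, was at 0 counts in all libraries.

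None of the 12 copper delivery genes tested of 13 passed an FDR of 0.05 in edgeR's test, against 1.12% of all features called. For so few genes, a count of 0 lies near that share. Of the 12, 6 had a log2 fold change above 0 and 6 below, at a median of −0.036, against −0.0019 over all features tested. MT2A, a metallothionein that binds copper and zinc, had the most counts among them and a log2 fold change of −0.21 (edgeR adjusted p = 0.0518), which passed in 6 alternatives, among them DESeq2 (0.000226), limma-voom (0.0452) and edgeR with no filter (0.0142). SLC31A1, the copper importer of the plasma membrane, had a log2 fold change of 0.04 (edgeR adjusted p = 0.722), and ATP7A, the pump that loads copper into secreted enzymes, one of 0.14 (edgeR adjusted p = 0.397). Among 7 other amine oxidases 3 were tested and none passed, against the same 1.12% of all features. SMOX and PAOX had log2 fold changes of −0.15 and −0.11 (edgeR adjusted p = 0.316 and 0.840). AOC3, MAOA, MAOB and AOC1 had at most 16 counts in any library.

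LOX is a known target of hypoxia signaling and of TGF-β, and lists for both were read beside it. Of 14 hypoxia response genes, 13 were tested. None passed in edgeR's test with the filter used here, against 1.12% of all features called in either direction. A count of 0 among 13 genes lies near that share. Their median log2 fold change was 0.09, against −0.0019 over all features tested. SLC2A1, the glucose transporter GLUT1, had a log2 fold change of −0.02 (edgeR adjusted p = 0.780), and P4HA1, a prolyl hydroxylase subunit, one of 0.17 (edgeR adjusted p = 0.0684). With edgeR and no filter on low counts, P4HA1 (0.0308) and PDK1 (0.0342) passed as higher and ADM (0.0232) as lower. With DESeq2, P4HA1 (adjusted p = 0.000903), PDK1 (0.00713) and BNIP3L (0.0149) passed as higher and ADM (0.00148) as lower. Over all 16 alternative fits, 0 to 3 genes of the list passed as higher and 0 to 1 as lower. Of 12 TGF-β response genes 1 rose, none fell and 11 did not pass, against 0.400% of all features called higher, at a median log2 fold change of −0.0066. TGFBI, a secreted matrix protein gene, rose by 0.18 on the log2 scale (edgeR adjusted p = 0.000837), while CCN2 had a log2 fold change of 0.01 (edgeR adjusted p = 0.893). ACTA2, the smooth muscle actin of myofibroblasts, had a log2 fold change of 0.12 (edgeR adjusted p = 0.0774) and passed as higher in 5 alternatives, among them library size scaling (0.0261), DESeq2 (0.00424) and the fit without DOX+ replicate 2 (0.0102). The study reports the opposite direction for ACTA2 by RT-qPCR, a different assay, as a significant decrease after ZNF469 knockdown. Why the directions differ was not tested.

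**Figure D5:**
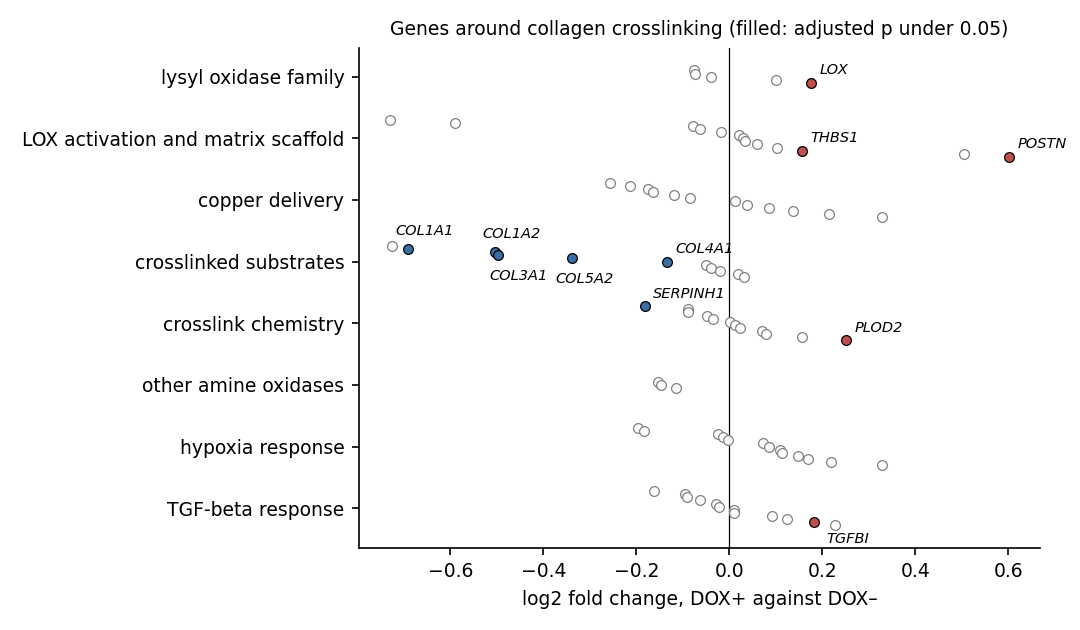
Log2 fold change (DOX+ against DOX–) of every tested gene in the lysyl oxidase family and 7 lists around it, 1 point per gene, with red for genes that rose, blue for genes that fell and open points for those that did not pass an adjusted p of 0.05. Filled blue points gather among the crosslinked substrates, from −0.69 for COL1A1 to −0.13 for COL4A1, whereas LOX is the only filled point of its family.

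The features whose pattern over the 6 libraries lay closest to that of LOX were WNT5A, TNKS and MBNL1, by root mean square distance of centred log2 CPM over 11797 features ranked. WNT5A, a secreted WNT ligand, lay at a distance of 0.0113 and measured 351, 346 and 334 CPM in DOX– and 388, 406 and 380 CPM in DOX+ replicates 1, 2 and 3. As for LOX, DOX+ replicate 2 was the highest of the 6 libraries and DOX– replicate 3 the lowest. TNKS, a poly-ADP-ribose polymerase, lay at 0.0115, and MBNL1, a splicing regulator, at 0.0130. WNT5A and MBNL1 had log2 fold changes of 0.19 and 0.17 (edgeR adjusted p = 0.0263 and 0.0376), and TNKS one of 0.19 (edgeR adjusted p = 0.0828). The distance follows the shared split into DOX– and DOX+ libraries, so it is a description.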

How the data were processed

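Poly(A)-selected RNA was sequenced as 150 bp read pairs (NEBNext Ultra II). The authors removed low-quality reads, used HISAT2 with GRCh38 for alignment and then StringTie; versions, annotation release and counting tool are not given in the sources used here. The deposited table holds a raw count and an FPKM value made by the authors for each feature and library; 17 stray lines were dropped. Groups came from sample titles.

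Counts were analysed in R 4.3.3 with edgeR 4.0.16 (filterByExpr, minimum count 10, 13991 features kept; TMM, factors 0.988 to 1.01; quasi-likelihood test; Benjamini-Hochberg adjustment over all features kept). The SE was taken as |log2 fold change| over √F. Alternatives used other filters and scalings, DESeq2 1.42.0, limma 3.58.1 (voom, or log2(FPKM + 1)), a replicate block, a transcript length trend removed (lowess span 0.3) and each library left out. No library duplicated another (chi-square over degrees of freedom 4.54 to 8.12 within groups). Scripts were tested on simulated data. Members and lists were chosen with earlier results of these data known. Outside the members and ZNF469, named genes are those called in each list (at most 4, by p-value), or 2 with the most counts where none was called, the 3 nearest in pattern to the called member and the overlapping genes; COL4A1, ELN, PLOD1, PLOD3, BMP1, FN1, ATP7A, PDK1, BNIP3L, ADM, CCN2, ACTA2 and the features at or near 0 counts were added after their values were seen. CCN2 is listed as CTGF in the table and was matched by identifier. 1 gene of the TGF-β list is not reported here and was left out of its counts.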

Additional observations from a re-analysis of the deposited data

How the results depend on the processing

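LOX kept its direction in all 16 alternative fits, with log2 fold changes from 0.15 to 0.20, and its call in 15. With limma on log2(FPKM + 1) its log2 fold change was 0.18 (adjusted p = 0.115), in a fit that called 6 features higher and 24 lower. Why the call was lost there was not tested. Leaving out single libraries gave 0.15 to 0.19 for LOX, 0.08 to 0.14 for LOXL1, −0.10 to −0.05 for LOXL2, −0.06 to −0.01 for LOXL3 and −0.21 to 0.02 for LOXL4. LOXL4 changed sign without DOX– replicate 3 (0.0020) and without DOX+ replicate 1 (0.022). LOXL1, LOXL2, LOXL3 and LOXL4 passed an FDR of 0.05 in none of the 16. Their lowest adjusted p-values were 0.0853 (DESeq2), 0.0526 (edgeR with the replicate block), 0.718 and 0.504 (both edgeR with 1 library left out). DESeq2 gave no adjusted p for LOXL4. The order of levels was the same in CPM per kb.

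Over all features, 56 were called higher and 100 lower. Counts were 127 and 163 without a filter, 266 and 265 with DESeq2, 6 and 24 with limma on FPKM, 2 and 4 when the log2 fold change also had to pass ±1, and 1023 and 1076 at an unadjusted p under 0.05. Library size scaling gave 88 higher and 77 lower and moved the median log2 fold change of all features to 0.019. Leaving out 1 library gave 20 to 69 higher and 54 to 92 lower, the fewest without DOX+ replicate 1. With the replicate number as a block, 135 were higher and 157 lower, and LOX was at 0.18 (edgeR adjusted p = 0.00239). Deviations of same-numbered libraries from their group means had correlations of −0.0134, −0.0337 and 0.0316 over 13875 features. These correlations weigh scarce and abundant features alike, so they do not settle whether the numbers pair the libraries.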
